A study of Bos taurus with 36 samples.

Results

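Solute carriers (SLC) are the largest group of membrane transporters, and each family of them moves a class of small molecules such as amino acids, sugars, organic acids, metals or nucleotide sugars. A lactating mammary cell draws amino acids, glucose, acetate, fatty acids, minerals and vitamins from blood through transporters in its basal membrane. Others, inside the cell, bring nucleotide sugars and metals into the Golgi apparatus, where lactose, milk glycoproteins and casein micelles are made, and carry metabolites across the mitochondrial membrane. Described here were all genes with a single symbol in the array annotation that begins with SLC and a digit, apart from SLC2A1, SLC35A2, SLC34A2 and SLC40A1. There were 176 of them among 9155 genes with a single symbol, and each was represented by its brightest probe set. They fell into 13 substrate classes by family, with SLC4A1AP and SLC7A6OS, which are named after a carrier but are not one, set apart.

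Mammary tissue came from 6 multiparous Holstein cows under unilateral frequent milking: for days 1 to 21 of lactation glands of the right udder side were milked 4 times daily (4×) and those of the left side 2 times daily (2×), and thereafter both sides were milked 2 times daily. A biopsy of each side on day 21, day 23 and day 40 gave 6 samples of 4× glands and 6 of 2× glands per day and 36 arrays in all. The labels 4× and 2× name the side by its milking up to day 21 on all 3 days. Day 21 was the last day of frequent milking, and days 23 and 40 followed its end. The fore glands were used on day 23 and the rear glands on the other days, so a change between day 21 and day 23 cannot be told apart from a change of gland position. Values are log2 expression levels, so a difference of 1 is a doubling. Levels of different genes come from different probe sets and were not set against each other.

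All 9 measured markers of secretory mammary epithelium (caseins, alpha-lactalbumin, beta-lactoglobulin and others) had a mean log2 level of at least 5, and none of 5 erythrocyte markers did. One library stood apart: in the 2× gland of cow 1 on day 21, the 176 genes had a mean correlation of 0.939 with the other arrays, where the other 35 lay between 0.980 and 0.988. In that library 50 of the 176 genes had their lowest level of all 36 arrays and 22 their highest. Its mean over the secretory markers was 13.70, against 13.97 to 14.15 in the other 35 arrays, and its mean over 7 ductal and luminal progenitor markers (keratins, KIT and ELF5) was 10.67, against 8.61 to 9.98 in the others. Results of day 21 are therefore given with and without cow 1. In tissue, fewer cells of a type and less RNA per cell cannot be told apart.

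Of the 176 genes, 140 had a mean log2 level of at least 5 and 36 lay under it, near the background of the array. Means ran from 3.03 to 12.38 with a median of 6.47. Among the brightest probe sets, which are no ranking of transcripts, were those of SLC25A6, an ADP/ATP exchanger of the inner mitochondrial membrane, at 12.38, the zinc importer SLC39A8 at 11.70, the nucleoside transporter SLC29A1 at 11.63 and SLC31A2, of the copper transporter family, at 11.59. Over the 36 arrays, 97 genes ranged by less than 1 and 14 by at least 2. SLC39A12, a zinc importer, had the widest range, 3.91 to 8.82, and it went by cow: its 6 arrays lay between 3.91 and 4.31 in cow 1 and between 7.35 and 8.82 in cow 6, and those of the other 4 cows were in between.

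On day 21, at the end of frequent milking, transporters of amino acids, metals and nucleotide sugars made up 18 of the 29 SLC genes that were higher in 4× glands. These classes hold 27, 21 and 16 of the 176 genes. Of the other classes, phosphate and sulphate (4 genes) had a mean difference of 0.12, with 0.44 in cow 1 and 0.05 without it. Monocarboxylates and other organic acids (5 genes) had one of 0.10, with 0.11 without cow 1. A gene was called where limma gave an unadjusted p under 0.05 for the mean of the 6 differences within cows (4× minus 2×). By this measure 29 SLC genes were higher and 10 lower in 4× glands, which is 16.5% and 5.68% of the 176, against 8.29% and 9.61% of all 9155 genes. In total 39 were called, 22.2% against 17.9% of all genes. None passed after adjustment over the 24016 probe sets tested, where the smallest adjusted p was 0.180 in limma. The median difference was 0.05 over the SLC genes and 0.01 over all genes, and 114 of the 176 (64.8%) lay above 0, against 52.2% of all genes. The mean over the 176 was 0.06, with 0.21 in cow 1 and 0.03 without it. Without cow 1, 15 genes were called, 12 of them higher and 3 lower, and 11 of the 39 calls held with any 1 cow left out. With arrays scaled to 5 reference genes, 28 were higher and 4 lower. In 6 of 6 cows, 7 SLC genes were higher and 5 lower in 4× glands, 6.82% of the 176 in one direction or the other, against 6.83% of all genes, of which 3.74% were higher and 3.09% lower.

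**Figure D1:**
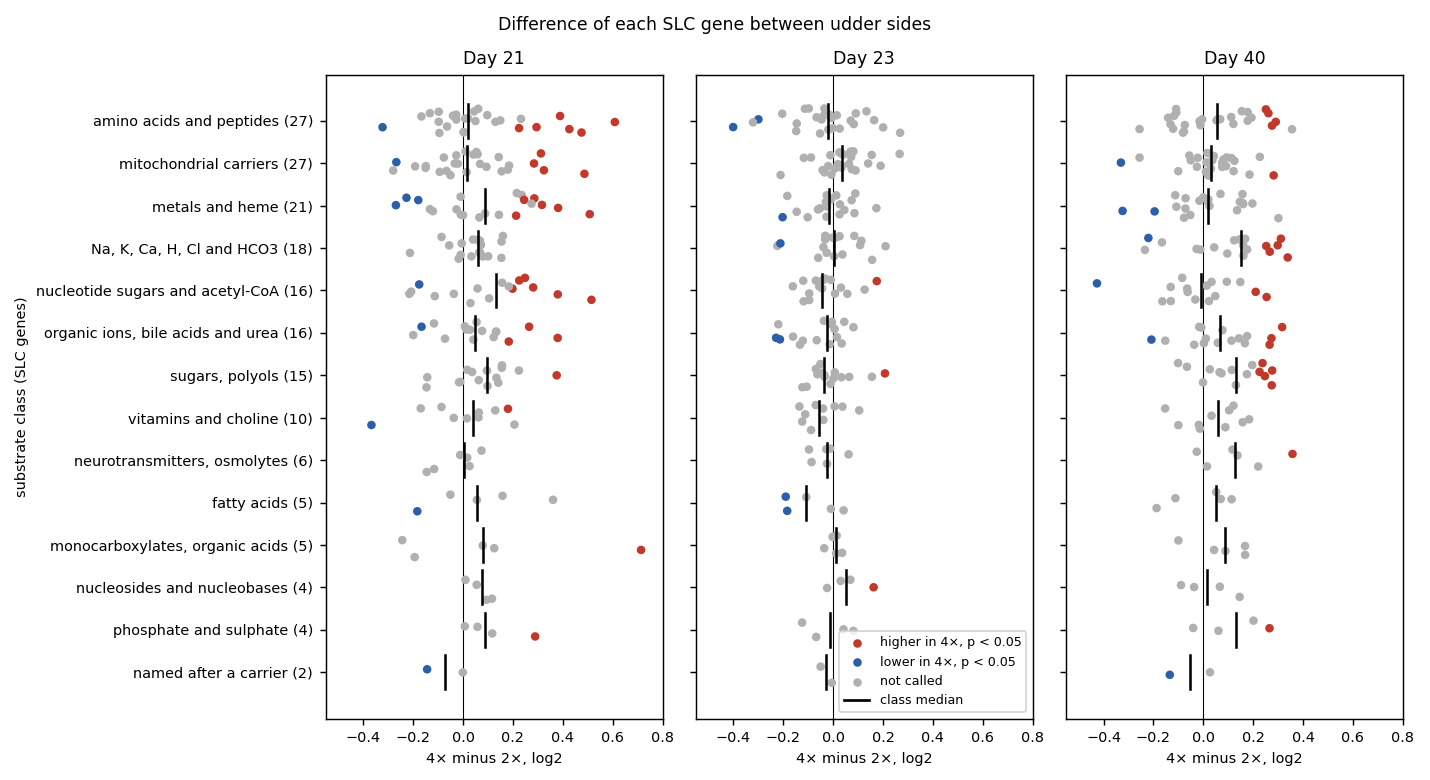
Each point is an SLC gene, placed by its mean difference between udder sides (4× minus 2×, log2, horizontal axis) in its substrate class (vertical axis, number of genes in brackets) on days 21, 23 and 40. Red and blue points were called higher or lower at an unadjusted p under 0.05, grey points were not, and black bars are class medians. There are 29 red points on day 21, 3 on day 23 and 22 on day 40. The day 40 number was 4 under scaling to reference genes and 19 with arrays centred on their medians.

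Amino acid transporters, 27 genes, had 6 called higher and 1 lower on day 21. The class mean was 0.08 ± 0.11 (SD over 6 cows) and it was above 0 in 4 cows, with 0.05 without cow 1. SLC7A5, which exchanges large neutral amino acids such as leucine across the plasma membrane, had levels of 10.21, 10.63 and 11.86 (lowest, median and highest) in 4× glands, against 8.98, 10.47 and 11.52 in 2× glands. The groups overlapped, with the lowest value in the 2× gland of cow 1, and the difference of 0.48 ± 0.19 (SE, adjusted p = 0.239 in limma) was positive in 4 of 6 cows. Without cow 1 it was 0.23 and without cow 6 it was 0.36, and neither was called. SLC3A2, its partner subunit, had a difference of -0.17 ± 0.16 and was not called.

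SLC1A4, a sodium dependent exchanger of alanine, serine and cysteine, had levels of 8.78, 9.03 and 9.70 in 4× glands, against 7.67, 8.78 and 9.53 in 2× glands. Its difference of 0.39 ± 0.14 was positive in 5 of 6 cows. The call was lost without cow 1, at 0.19, and without cow 6, at 0.30. SLC38A3, a sodium coupled transporter of glutamine and histidine, had levels of 8.07, 8.54 and 9.04 in 4× glands, against 6.29, 8.21 and 8.71 in 2× glands, and its difference of 0.61 ± 0.23 was 0.26 and not called without cow 1. For both genes the lowest 2× value was that of cow 1.

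Calls for SLC38A11 and SLC6A17 held with any 1 cow left out. SLC38A11, a little studied member of the sodium coupled neutral amino acid family, had levels of 5.13, 5.56 and 5.82 in 4× glands, against 4.54, 5.17 and 5.40 in 2× glands. Its difference was 0.43 ± 0.11 (adjusted p = 0.180 in limma) and was positive in 5 of 6 cows. SLC6A17, known as a vesicular carrier of neutral amino acids in neurons, had 6.14, 6.54 and 6.73 in 4× glands, against 6.03, 6.13 and 6.48 in 2× glands, and was higher in 6 of 6 cows by 0.29 ± 0.09. SLC38A7, a glutamine and asparagine carrier of lysosomes, was the member of the class called lower, at -0.32 ± 0.13, and without cow 3 it was at -0.16 and not called. Other amino acid transporters known from mammary tissue were not called on this day: SLC1A5, for glutamine, was at 0.23 ± 0.13, SLC7A1, for cationic amino acids, at -0.09 ± 0.12, and SLC38A2, for small neutral ones, at 0.01 ± 0.09. A second, dimmer probe set of SLC38A2, with a mean level of 7.17, was at 0.56 ± 0.25 and called. For SLC1A1, a glutamate and aspartate carrier, the probe set with that symbol was at -0.10 ± 0.15, and another probe set, which the study lists under this name and the annotation leaves unnamed, was at -0.62 ± 0.22 (adjusted p = 0.194 in limma) and called, with -0.50 without cow 1. This unnamed probe set was at 0.44 ± 0.22 on day 23 and -0.45 ± 0.22 on day 40, not called on either.

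SLC16A1, the proton coupled carrier of lactate, pyruvate and ketone bodies, had the largest day 21 difference of the 176 genes over all 6 cows, though not without cow 1. Its levels were 9.90, 10.43 and 10.73 in 4× glands, against 7.41, 10.22 and 10.39 in 2× glands. The 2× gland of cow 1 lay far under the other 5, and its difference of 2.82 compares with a next highest of 0.40. The mean difference was 0.71 ± 0.22 (adjusted p = 0.181 in limma), positive in 6 of 6 cows, and without cow 1 it was 0.29 and still called, under SLC39A12 at 0.67 and SLC38A11 at 0.32. Of the other 4 monocarboxylate and organic acid carriers none was called, and SLC16A3, a lactate exporter of glycolytic cells, was at -0.24 ± 0.14, where a probe set of it near the background, with a mean level of 3.53, was at 0.18 ± 0.06 and called.

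Carriers of metals and heme, 21 genes, had 6 called higher and 3 lower. The class mean was 0.10 ± 0.12 and was above 0 in 5 of 6 cows, with 0.32 in cow 1 and 0.10 in the next highest, and it was 0.05 without cow 1. SLC39A9, a zinc transporter, had levels of 10.04, 10.23 and 10.55 in 4× glands, against 9.10, 9.94 and 10.36 in 2× glands. Its difference of 0.38 ± 0.10 was positive in 5 of 6 cows and was 0.24 without cow 1, where it was still called. SLC31A1, the main copper importer of the plasma membrane, had 10.13, 10.37 and 10.55 in 4× glands, against 9.82, 10.17 and 10.28 in 2× glands. Its difference of 0.24 ± 0.08 was positive in 5 of 6 cows, with 0.17 and still called without cow 1. SLC39A12 was higher by 0.51 ± 0.17, and by 0.67 without cow 1, though in 4 of 6 cows alone.

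Other metal carriers were less steady. SLC39A14, which takes up zinc and iron, was at 0.29 ± 0.10 with 0.15 and no call without cow 1. SLC30A6, a zinc transporter of the secretory pathway, was at 0.32 ± 0.12 with 0.19 without cow 1, and SLC39A7, which releases zinc from the endoplasmic reticulum, was at 0.21 ± 0.09 with 0.10 without it, and neither was then called. SLC39A7 also lost its call without cow 2 or cow 3, at 0.21 each. SLC30A2, which loads zinc into secretory vesicles and is needed for zinc in milk, was at 0.14 ± 0.10 and was not called. The carriers called lower were SLC11A1 at -0.23 ± 0.08 and the zinc transporters SLC39A6 at -0.27 ± 0.11 and SLC39A13 at -0.18 ± 0.08, and each call was lost without cow 1, at -0.15, -0.16 and -0.08. The call of SLC11A1 was also lost without cow 5 (-0.19), that of SLC39A6 without cow 3 (-0.26) and that of SLC39A13 without cow 4 (-0.19) or cow 6 (-0.16). SLC11A1 is a metal transporter of phagocytes and its mean level was 4.17. On the same day 3 of 7 macrophage markers were lower and 1 higher in 4× glands, with a mean difference over the list of -0.17 ± 0.23 (SD over cows), -0.13 without cow 1, and mean levels of 7.79 to 7.997 in 4× glands and 7.80 to 8.42 in 2× glands; their part in the result was not tested.

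Nucleotide sugar and acetyl-CoA carriers, 16 genes, had 6 called higher and 1 lower, with a class mean of 0.10 ± 0.13 and 0.06 without cow 1. SLC35D2, which brings UDP-N-acetylglucosamine into the Golgi apparatus, had levels of 9.02, 9.68 and 10.44 in 4× glands, against 7.61, 9.43 and 10.22 in 2× glands. It was higher in 6 of 6 cows, by 0.51 ± 0.15, with 1.80 in cow 1 and 0.40 in the next highest. Without cow 1 the mean was 0.26 and still called. SLC33A1, which carries acetyl-CoA into the endoplasmic reticulum, had 8.13, 8.45 and 8.73 in 4× glands, against 7.85, 8.30 and 8.46 in 2× glands, and was higher in 6 of 6 cows by 0.25 ± 0.09, with a call that held without any 1 cow. SLC35B1, the ATP carrier of the endoplasmic reticulum, at 0.28 ± 0.11, and SLC35C1, the GDP-fucose carrier, at 0.38 ± 0.15, were both at 0.12 and not called without cow 1, and SLC35C1 was at 0.37 and not called without cow 6. SLC35A1, which carries CMP-sialic acid into the Golgi apparatus, went the other way, with 7.94, 8.08 and 8.29 in 4× glands, against 7.99, 8.29 and 8.52 in 2× glands. Its difference of -0.18 ± 0.08 was negative in 5 of 6 cows and was not called without cow 1 (-0.13), cow 3 (-0.11) or cow 6 (-0.19).

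SLC25 carriers, 27 genes, had 4 called higher and 1 lower and a class mean of 0.04 ± 0.06, with 0.03 without cow 1. SLC25A17, the SLC25 member of peroxisomes, where it carries coenzyme A and related cofactors, had levels of 8.61, 8.92 and 9.08 in 4× glands, against 8.05, 8.68 and 8.87 in 2× glands. Its difference of 0.32 ± 0.09 (adjusted p = 0.180 in limma) was positive in 5 of 6 cows and held without any 1 cow, with 0.21 without cow 1. SLC25A15, which exchanges ornithine and citrulline, had 5.22, 5.43 and 5.64 in 4× glands, against 4.29, 5.24 and 5.42 in 2× glands, and its difference of 0.31 ± 0.10 was 0.18 and still called without cow 1. SLC25A28, an iron importer of mitochondria, had 8.49, 8.63 and 8.84 in 4× glands, against 8.65, 8.75 and 9.60 in 2× glands. It was lower in 6 of 6 cows, at -0.27 ± 0.10, though without cow 1 it was at -0.17 and not called. The citrate carrier SLC25A1, which feeds fatty acid synthesis, was at -0.08 ± 0.07 and not called.

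Sugar carriers, 15 genes, had 1 call on day 21: SLC5A9, a sodium coupled carrier of mannose and other sugars, was at 0.38 ± 0.13, with 0.18 without cow 1, where it was still called, though not where the day 21 pair of cow 1 alone was left out. The glucose transporters SLC2A8 at 0.22 ± 0.12, SLC5A1 at -0.01 ± 0.11, SLC2A3 at 0.16 ± 0.09 and SLC2A4 at 0.16 ± 0.09 were not called. For SLC5A1, a dimmer probe set with a mean level of 6.37 was called, at 0.34 ± 0.13 on day 21 and 0.28 ± 0.13 on day 40. Of 18 ion carriers none was called. Among the organic ion carriers SLC17A9, which loads ATP into vesicles, was at 0.38 ± 0.13 with 0.20 and no call without cow 1. SLC5A6, the carrier of biotin and pantothenate, was at 0.18 ± 0.07, positive in 5 of 6 cows, and lost its call without cow 1 (0.14), cow 3 (0.15) or cow 6 (0.16). SLC27A6, a fatty acid transport protein known from mammary tissue, was at 0.36 ± 0.20 and not called.

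A further set of day 21 calls was lost without cow 1 and also without a second cow. SLC13A4, a sulphate carrier, was at 0.29 ± 0.13 with 0.16 without cow 1, and SLC17A5, which exports sialic acid from lysosomes, was at 0.26 ± 0.10 with 0.18. SLC25A21, which carries dicarboxylates with oxo groups into mitochondria, was at 0.49 ± 0.20 with 0.18, and SLC46A2, of the folate carrier family, at -0.37 ± 0.16 with -0.20. None of the 4 was called without cow 1, and the calls of SLC17A5, SLC25A21 and SLC46A2 were also lost without cow 3 and that of SLC13A4 without cow 2. SLC10A3, of the bile acid carrier family, was lower in 6 of 6 cows at -0.17 ± 0.06, with -0.12 and no call without cow 1. SLC35A4, of the nucleotide sugar family, was an exception, with 0.23 ± 0.09, 0.22 and still called without cow 1, and no call without cow 4 or cow 6. Carriers with high levels that were called on none of the 3 days included SLC6A8, the creatine transporter, SLC20A1, a phosphate transporter, SLC25A3, the mitochondrial phosphate carrier, SLC28A3, a concentrative nucleoside transporter, and SLC29A1. A second probe set of SLC28A3 was called on day 21, at 0.27 ± 0.13. On day 21 SLC6A8 was at 0.03 ± 0.08, SLC20A1 at 0.01 ± 0.09, SLC25A3 at 0.09 ± 0.06, SLC28A3 at 0.05 ± 0.07 and SLC29A1 at 0.12 ± 0.10.

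Markers of other cells also differed on day 21. Ductal and luminal progenitor markers were lower in 4× glands for 5 of 7, with a list mean of -0.51 ± 0.57 (SD over cows) that was negative in 6 of 6 cows, and mean levels of 8.61 to 9.08 in 4× glands and 8.86 to 10.67 in 2× glands. Cow 1 had -1.61, and without it the list mean was -0.30. KRT7, KRT8, KRT15 and KIT of this list are also genes that the study listed from these same arrays. Secretory markers had a list mean of 0.08 ± 0.18 with 1 of 9 higher, and 0.01 without cow 1, which had 0.43. Neutrophil markers had one of -0.38 ± 0.56 with 2 of 4 lower, and -0.23 without cow 1, which had -1.14. The part of these lists in the SLC results was not tested.

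**Figure D2:**
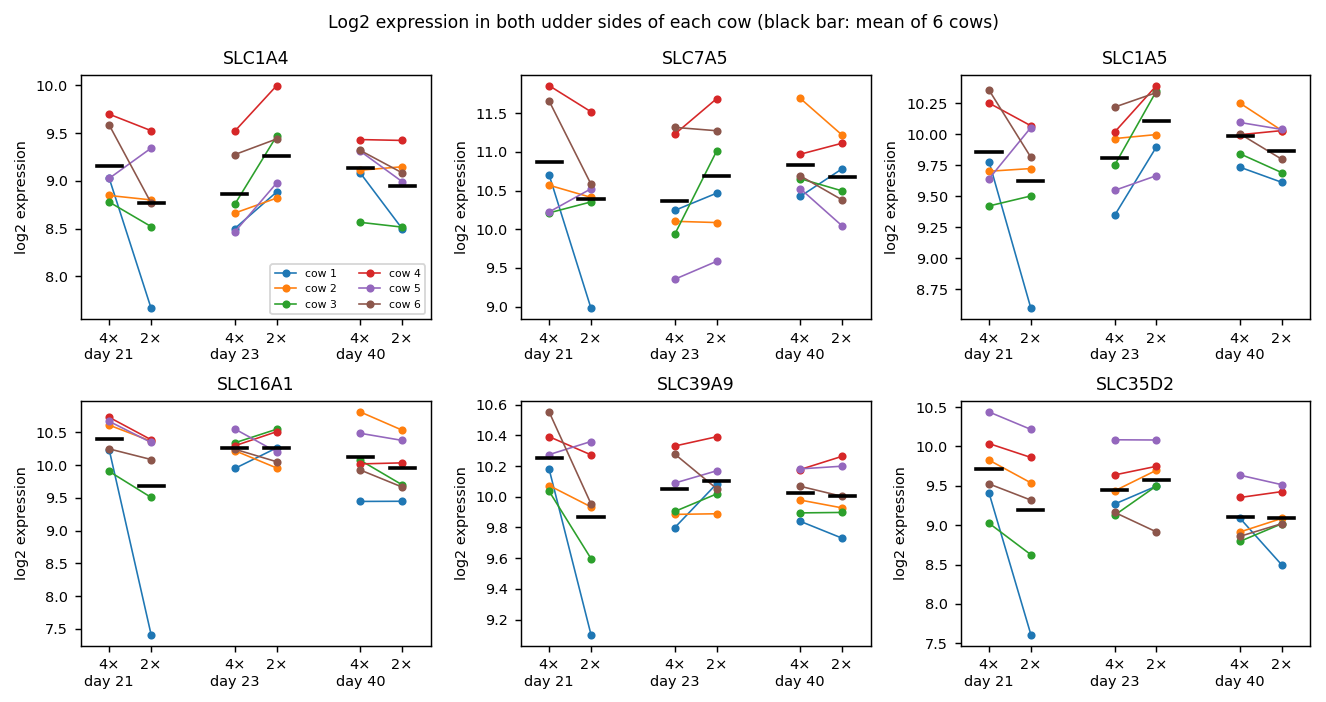
Log2 expression (vertical axis) of SLC1A4, SLC7A5, SLC1A5, SLC16A1, SLC39A9 and SLC35D2 in the 4× and 2× gland of each cow on days 21, 23 and 40. Lines join the 2 sides of a cow and black bars are means of 6 cows; the 2× gland of cow 1 on day 21 is the lowest point in each panel, and on day 23 SLC1A4 and SLC1A5 are lower in the 4× gland of every cow.

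On day 23, with both sides milked 2 times daily, SLC1A4 and SLC1A5, exchangers of neutral amino acids, were lower in the glands that had been milked 4×. In total 3 SLC genes were higher and 8 lower in 4× glands, 1.70% and 4.55% of the 176, against 1.41% and 1.07% of all genes, and 11 were called, 6.25% against 2.48% of all genes. The smallest adjusted p was 1.00 in limma. The median difference was -0.01 and 74 of 176 lay above 0. In 6 of 6 cows, 1 SLC gene was higher and 5 were lower, 3.41% of the 176, against 2.27% of all genes, of which 1.19% were higher and 1.08% lower. No call of this day held with each cow left out in turn, and the count was 5 without cow 2, 6 without cow 3 and 19 without cow 6.

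SLC1A4 had levels of 8.47, 8.71 and 9.52 in 4× glands, against 8.82, 9.21 and 9.997 in 2× glands. It was lower in 6 of 6 cows, at -0.40 ± 0.14 (adjusted p = 1.00 in limma), with -0.34 and no call without cow 3. A second probe set of SLC1A4, with a mean level of 7.05, was at -0.27 ± 0.16 and not called. SLC1A5, which takes up glutamine, had 9.34, 9.86 and 10.22 in 4× glands, against 9.67, 10.17 and 10.39 in 2× glands, and was lower in 6 of 6 cows at -0.30 ± 0.13. It was at -0.24 and not called without cow 3 and at -0.28 and not called without cow 4. The groups overlapped for both genes. SLC7A5 was at -0.32 ± 0.19 and was not called.

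The other calls of day 23 were spread over several classes. SLC35A1 was the nucleotide sugar carrier called, at 0.17 ± 0.08, with levels of 7.98, 8.17 and 8.38 in 4× glands, against 7.89, 7.98 and 8.22 in 2× glands. SLC29A2, an equilibrative nucleoside transporter, was higher in 6 of 6 cows by 0.16 ± 0.08, and SLC2A5, the fructose transporter, was at 0.21 ± 0.09. SLC35A1, with a lowest value of 0.11, lost its call without cow 1, 2, 3 or 6, SLC29A2, with 0.12, without any cow but cow 3, and SLC2A5, with 0.16, without cow 2, 3, 4 or 5. SLC17A6, SLC22A8, SLC27A2 and SLC27A5, all under a mean level of 5, and SLC4A7, a sodium bicarbonate cotransporter, and SLC30A5, a zinc transporter of the secretory pathway, were lower, with differences between -0.23 and -0.18. Ductal and luminal progenitor markers had a list mean of 0.13 ± 0.11 on this day, positive in 6 of 6 cows, with 0 of 7 called, and its part in these results was not tested.

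The difference itself was then compared between day 21 and day 23. It fell for 26 SLC genes and rose for 2, which is 14.8% and 1.14% of the 176, against 5.42% and 7.01% of all genes. In total 28 were called, 15.9% against 12.4%, and the smallest adjusted p was 0.386 in limma. Of the 28 genes, 24 had a positive difference on day 21 and a negative one on day 23, and 2 had the reverse. Choosing genes by the change favours opposite signs on the 2 days. The share among all genes with a called change was not worked out, so these counts say nothing particular to SLC genes. The median change was -0.06 over the SLC genes and -0.00 over all genes. Without cow 1, 14 were called, 11 negative and 3 positive, without cow 3, 18 were called, and without the day 21 pair of cow 1 alone, 17, of which 16 were negative. In 10 of the 28 genes the call held with any 1 cow left out. The difference of the ductal and luminal progenitor markers changed the other way, by a list mean of 0.65 with 6 of 7 called positive. Without cow 1, which had 1.91, it was 0.39. Of these markers KRT7, KRT8, KRT15 and KIT are on the study's list, which was chosen for this change in these same arrays. Their positive change is thus no separate finding, and the part of the markers in the result was not tested.

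Called changes were found for 7 of 27 amino acid carriers, all negative, and for 6 of 16 nucleotide sugar carriers, 5 negative and 1 positive. The change was -0.79 ± 0.20 for SLC1A4 (adjusted p = 0.386 in limma), negative in 6 of 6 cows, and -0.80 ± 0.27 for SLC7A5, negative in 5 of 6. Both held without any 1 cow, with -0.60 and -0.57 without cow 1. SLC1A5 changed by -0.53 ± 0.19, with -0.29 and no call without cow 1. The unnamed SLC1A1 probe set changed the other way, by 1.07 ± 0.31 (adjusted p = 0.386 in limma), and was called. The study listed this probe set because of such a change in these same arrays. Its size was therefore fixed by that choice and is not set against the 176 genes. Each of the 6 cows had a positive value. Leaving out cow 1 gave 0.80. In the nucleotide sugar class SLC35A1 was the positive call, at 0.35 ± 0.11, and SLC33A1 at -0.41 ± 0.12 and SLC35D2 at -0.64 ± 0.22 were among the negative, and these 3 held without any 1 cow, with -0.36 for SLC35D2 without cow 1. Calls that held the same way were those of SLC25A15 at -0.43 ± 0.14 and SLC22A8 at -0.40 ± 0.12, both negative in 6 of 6 cows, SLC5A6 at -0.32 ± 0.10, SLC39A7 at -0.36 ± 0.12, with -0.23 without cow 1, and SLC17A9 at -0.60 ± 0.18. SLC22A8 is a carrier of organic anions with a mean level of 4.82.

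**Figure D3:**
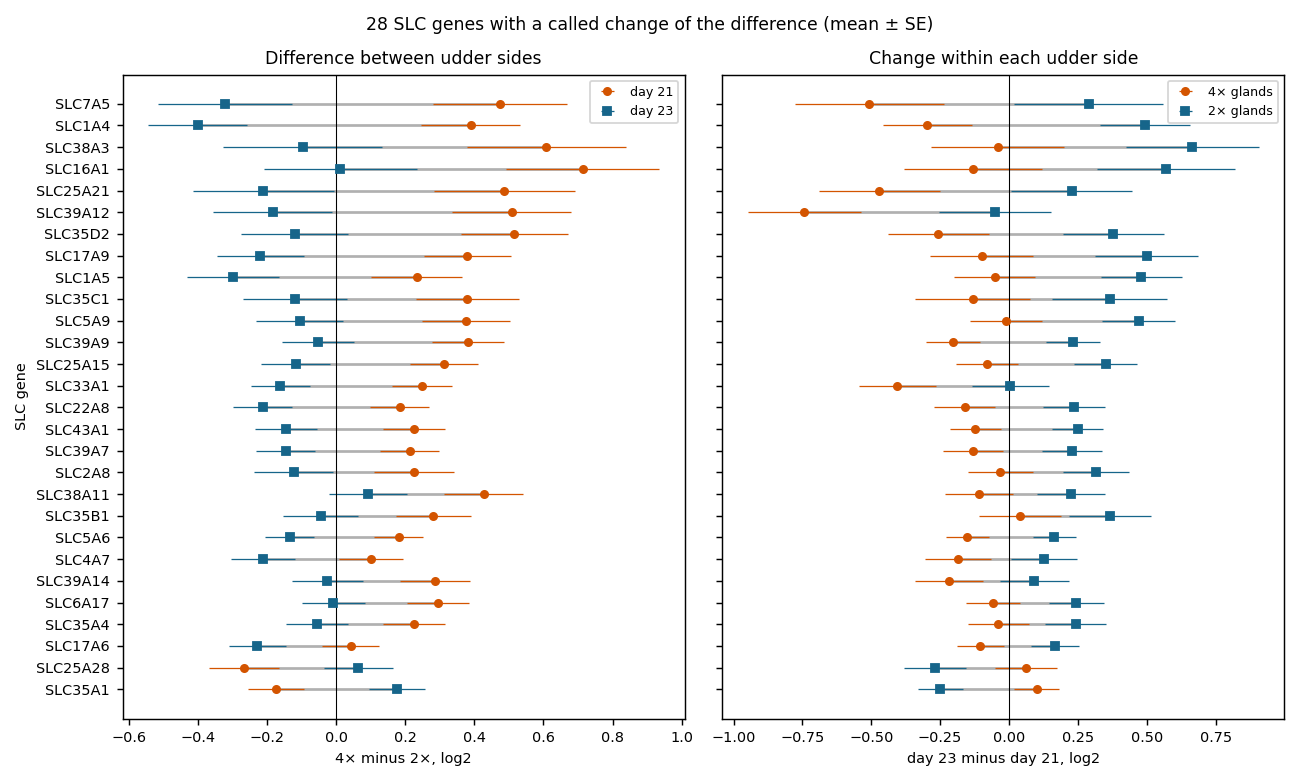
The 28 SLC genes whose difference between udder sides changed from day 21 to day 23 at an unadjusted p under 0.05, with means and standard errors over 6 cows on a log2 scale. Left, the difference between udder sides (4× minus 2×) on each day. Right, the change from day 21 to day 23 within 4× glands and within 2× glands. Of the 26 genes with a negative change, 25 were higher on day 23 in 2× glands and 25 were lower in 4× glands, which their choice by that change favours.

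The 2 udder sides were then compared over time, each on its own. Between day 21 and day 23, 4 SLC genes were higher and 7 lower in 4× glands, 6.25% called against 4.01% of all genes, of which 2.37% were higher and 1.64% lower. In 2× glands 26 were higher and 8 lower, 19.3% called against 18% of all genes, with 14.8% higher against 8.07% and 4.55% lower against 9.9%. Which side had more calls depended on cow 1: without it 11 were called in 4× glands, 2 higher and 9 lower, and 9 in 2× glands, 6 higher and 3 lower. The 4× count was 5 without cow 2 and 7 without cow 3 or cow 4, and the 2× count was 16 without cow 3. Of the 26 genes with a called negative change, 17 were called in 2× glands and 4 in 4× glands. This split also depended on cow 1. Without it, those called in 2× glands were SLC1A4, SLC1A5, SLC5A9 and SLC6A17. Those called in 4× glands were then SLC25A21, SLC33A1, SLC35D2, SLC39A12 and SLC4A7. SLC1A4 and SLC1A5 were higher on day 23 in 2× glands by 0.49 ± 0.16 and 0.48 ± 0.15, and by 0.35 and 0.32, still called, without cow 1. The 2× differences of SLC16A1 at 0.57 ± 0.25, SLC38A3 at 0.67 ± 0.24, SLC35D2 at 0.38 ± 0.18 and SLC17A9 at 0.50 ± 0.19 were 0.12, 0.22, 0.08 and 0.27 without cow 1 and no longer called. SLC33A1 was lower on day 23 in 4× glands at -0.41 ± 0.14 and at 0.00 ± 0.14 in 2× glands. These contrasts share the day 21 samples with the changes above and are not independent of them.

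On day 40, 19 of the 22 SLC genes that were higher in 4× glands had a mean level under 7. In total 22 were higher and 7 lower, 12.5% and 3.98% of the 176, against 8.9% and 9.51% of all genes, and 29 were called, 16.5% against 18.4% of all genes. With arrays scaled to 5 reference genes the split turned round, with 4 higher and 10 lower. The reference genes themselves had a mean difference of 0.05 on day 40, with 0.30 in cow 1 and -0.004 without it. With arrays centred on their medians, 19 were higher and 10 lower. The smallest adjusted p was 0.171 in limma. The median difference was 0.05 over the SLC genes and -0.00 over all genes, and with the reference genes it was 0.01 over the SLC genes. In 6 of 6 cows, 6 SLC genes were higher and 3 lower, 5.11% of the 176, against 7.82% of all genes, of which 3.55% were higher and 4.27% lower. Without cow 6, 16 were called, and in 9 of the 29 the call held with any 1 cow left out. The 22 higher genes had a median level of 5.73, and 5 of them were under 5, whereas the 29 higher on day 21 had a median level of 8.35. Over all genes with a mean level under 5, 17.8% were higher and 1.79% lower in 4× glands on day 40. Over those between 5 and 7, 15.0% were higher and 6.59% lower, and over those at 7 or above, 2.66% and 13.6%. The 36 SLC genes under 5 had 5 higher and 0 lower, the 60 between 5 and 7 had 14 and 0, and the 80 at 7 or above had 3 and 7.

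SLC22A6, a carrier of organic anions, had levels of 6.03, 6.34 and 6.52 in 4× glands, against 5.78, 5.97 and 6.24 in 2× glands. It was higher in 6 of 6 cows, by 0.32 ± 0.09 (adjusted p = 0.171 in limma), and by 0.27 with the reference genes. SLC6A6, the taurine transporter, had 4.90, 5.34 and 5.52 in 4× glands, against 4.68, 4.92 and 5.01 in 2× glands, and was higher in 5 of 6 cows by 0.36 ± 0.12. SLC4A3, an anion exchanger, had 5.27, 5.62 and 5.69 in 4× glands, against 5.01, 5.19 and 5.32 in 2× glands, and was higher in 5 of 6 cows by 0.34 ± 0.12. The groups overlapped for each of the 3 genes, and the calls held with any 1 cow left out and with the reference genes.

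By class, 5 of 18 ion carriers were higher on day 40, among them SLC9A3, a sodium proton exchanger, at 0.31 ± 0.12, and SLC12A1, a sodium potassium chloride cotransporter, at 0.30 ± 0.12. SLC4A7 was the ion carrier called lower, at -0.22 ± 0.09 and lower in 6 of 6 cows. The sugar class had 5 of 15 higher, including SLC2A5 at 0.27 ± 0.09 and SLC5A10 at 0.28 ± 0.10. Amino acid carriers had 4 of 27 higher, including SLC6A17 at 0.26 ± 0.09 and the glycine transporter SLC6A9 at 0.29 ± 0.10, and their class mean of 0.05 ± 0.03 was positive in 6 of 6 cows, with 0.00 under reference gene scaling. Of these, SLC6A17 kept its call with any 1 cow left out, SLC9A3 lost it without cow 1 (0.27), SLC2A5 without cow 6 (0.17), SLC5A10 without cow 1 (0.22), SLC6A9 without cow 6 (0.22), SLC12A1 without cow 2 (0.27) or cow 4 (0.29), and SLC4A7 without cow 4 (-0.21) or cow 5 (-0.17). SLC1A4 at 0.19 ± 0.14, SLC7A5 at 0.15 ± 0.19, SLC16A1 at 0.17 ± 0.22 and SLC35D2 at 0.01 ± 0.15 were not called on day 40. Metal carriers had 0 higher and 2 lower. With arrays scaled to 5 reference genes, 4 of the 176 genes were called higher on day 40, SLC22A6, SLC6A6 and SLC4A3 among them. Most of the higher calls of the ion, sugar and amino acid classes were thus lost under that scaling. The reference gene difference behind it was 0.30 in cow 1 and -0.004 over the other cows.

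**Figure D4:**
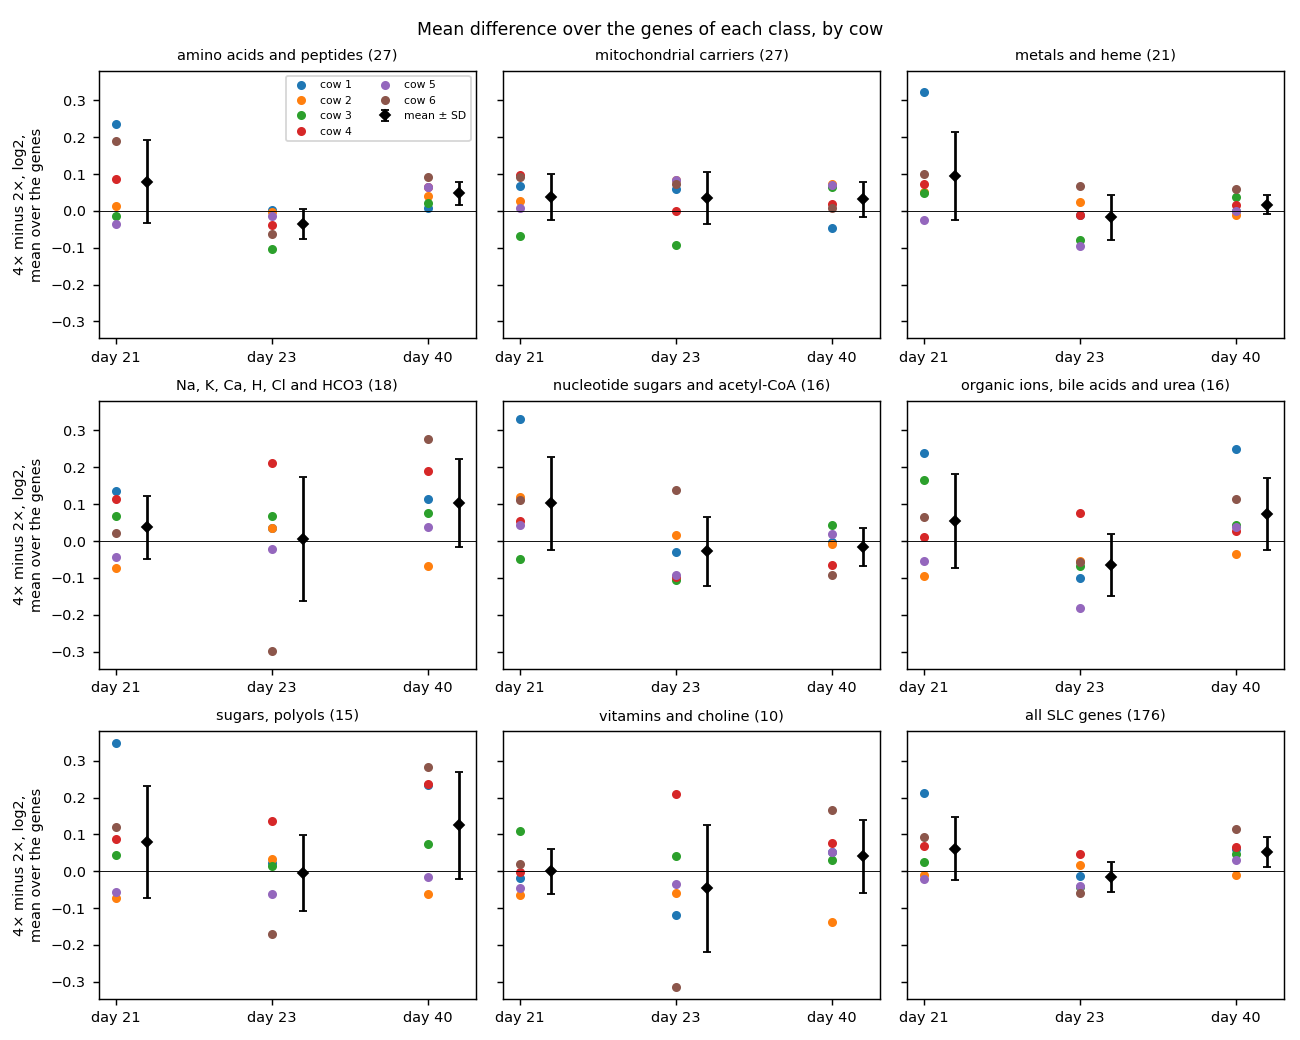
Mean difference between udder sides (4× minus 2×, log2, vertical axis) over the genes of each class with at least 10 genes and over all 176, for each cow on days 21, 23 and 40, with the mean and SD over 6 cows in black. For amino acid carriers the mean was 0.08 on day 21, -0.04 on day 23 and 0.05 on day 40, with 6 of 6 cows above 0 on day 40, and cow 1 is the highest point on day 21 for metals and heme at 0.32; with reference gene scaling the day 40 mean of amino acid carriers was 0.00 and that of metal carriers -0.03 in place of 0.02.

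Among the 7 genes lower on day 40, SLC25A28 had levels of 8.45, 8.53 and 8.63 in 4× glands, against 8.42, 8.87 and 9.28 in 2× glands, a difference of -0.33 ± 0.10 (adjusted p = 0.174 in limma) that was negative in 5 of 6 cows and held with any 1 cow left out. SLC39A6, a zinc importer, had 8.0, 8.49 and 8.71 in 4× glands, against 8.53, 8.74 and 8.95 in 2× glands, a difference of -0.32 ± 0.11, with -0.27 and no call without cow 3. SLC35A5, of the nucleotide sugar family, was at -0.43 ± 0.14, but its probe sets disagreed: of 3 others, 1 was higher by 0.31 and called, and the other 2 were at -0.11 and -0.00 and not called. Over all called genes of day 40, 15 of 18 further probe sets had the sign of the one used, and 11 of 11 did so on day 21. Among the genes that were not called, 12 of the 41 with further probe sets on day 21 had 1 that was called, 9 higher and 3 lower, and 15 of 38 did on day 40. On day 40 the ductal and luminal progenitor markers had a list mean of -0.24 ± 0.42 with 1 of 7 lower, and -0.12 without cow 1. The endothelial markers had one of -0.12 ± 0.17 with 1 of 8 lower, and -0.06 without cow 1, and the myoepithelial and smooth muscle markers one of -0.11 ± 0.36 with 2 of 8 lower, and -0.06 without cow 1. Adipocyte markers had a list mean of 0.16 ± 0.17 with 2 of 6 higher, positive in 5 of 6 cows, and 0.13 without cow 1. Of these markers ADIPOQ, LEP and CIDEC had mean levels under 5, near the background. The part of these lists in the results was not tested.

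Days 21 and 40 shared 7 SLC genes called in the same direction. That is 17.9% of the day 21 genes and 24.1% of the day 40 genes, against 20.1% and 19.5% for all genes called. In opposite directions 0 SLC genes were called, and opposite calls were rare over all genes too, with 5 against 329 in the same direction. The 7 genes were SLC25A15, SLC6A17 and SLC35C2, which were higher, and SLC25A28, SLC39A6, SLC39A13 and SLC4A1AP, which were lower in 4× glands. Days 21 and 23 shared 1 gene in the same direction, SLC27A5, and 3 in opposite directions, SLC1A4, SLC22A8 and SLC35A1. The gene in the same direction is 2.56% of the day 21 genes and 9.09% of the day 23 genes, against 0.73% and 5.29% for all genes called, of which 12 were in the same direction and 40 in opposite ones. The difference changed between day 21 and day 40 for 10 genes, 2 positive and 8 negative, 5.68% against 5.56% of all genes, of which 2.32% were positive and 3.24% negative. SLC31A1, at -0.32 ± 0.11, and SLC22A7, an organic anion carrier with a mean level of 4.30, at 0.38, were the 2 whose calls held without any 1 cow. SLC31A1 had 9.92, 10.20 and 10.32 in 4× glands on day 40, against 10.01, 10.30 and 10.41 in 2× glands.

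**Figure D5:**
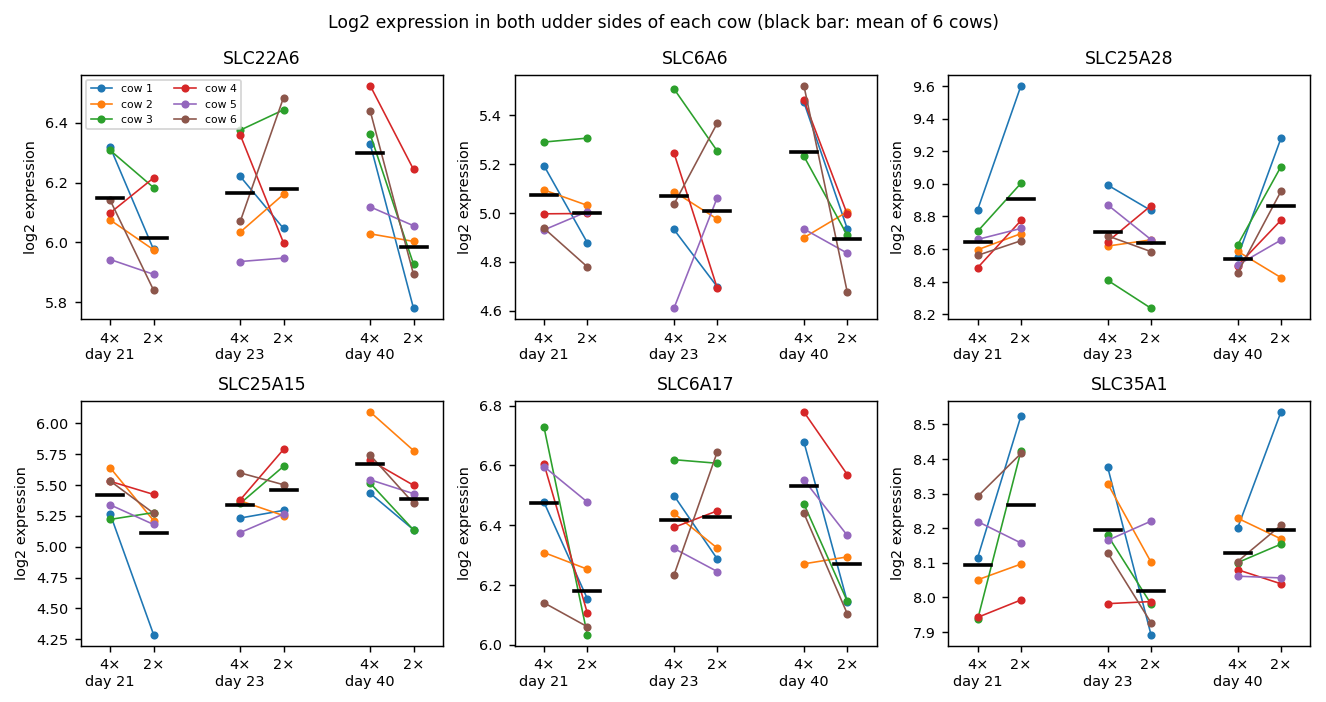
Log2 expression (vertical axis) of SLC22A6, SLC6A6, SLC25A28, SLC25A15, SLC6A17 and SLC35A1 in the 4× and 2× gland of each cow on days 21, 23 and 40. Lines join the 2 sides of a cow and black bars are means of 6 cows; on day 40 SLC22A6 and SLC25A15 were higher in the 4× gland of 6 of 6 cows and SLC25A28 was lower in 5 of 6.

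Within 4× glands, 4 SLC genes were higher and 11 lower on day 40 than on day 21, both sampled in rear glands, 8.52% called against 8.06% of all genes, of which 3.53% were higher and 4.53% lower, and 9 were called without cow 4. After adjustment 0 of the 176 and 0.0437% of all genes passed. SLC22A5, the carnitine transporter, was lower on day 40 at -0.45 ± 0.09 (adjusted p = 0.0628 in limma), which was the smallest adjusted p of any of the 176 genes in any contrast, and SLC35D2 was lower at -0.60 ± 0.18. SLC22A5 had a lowest, median and highest level of 8.80, 9.19 and 9.45 in 4× glands on day 40, against 9.21, 9.60 and 9.92 on day 21. SLC33A1, at -0.29 ± 0.14, SLC43A1, a carrier of branched chain amino acids, at -0.24, and the sodium potassium chloride cotransporter SLC12A2, at -0.31, were also lower, though SLC12A2 was not called without cow 1, at -0.31. In 2× glands 11 were higher and 4 lower, 8.52% against 7.25% of all genes, of which 4.39% were higher and 2.86% lower, and 9 were called without cow 1, 5 higher and 4 lower. SLC25A4, an ADP/ATP exchanger, was higher there by 0.41, with 0.28 and still called without cow 1. In 4× glands SLC25A4 was at 0.22 and not called, and without cow 1 it was at 0.20 and called. Likewise SLC22A5 at -0.17 and SLC35D2 at -0.10 were not called in 2× glands. Without cow 1 both were called there, at -0.25 and -0.30.

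Other transport families measured on the same arrays gave a comparison. On day 21, ABC transporters had 4 of 17 higher and 2 lower, P-type ATPases 2 of 12 higher and 0 lower, V-type ATPase subunits 2 of 19 higher and 2 lower, and aquaporins 1 of 6 higher and 0 lower. On day 23 a single gene of these 54 was called, a P-type ATPase that was higher. On day 40 the ABC family had 4 higher and 1 lower, the P-type and V-type ATPases each 1 higher and 1 lower, and the aquaporins 0 of either. Whether these families differ from the SLC genes was not tested.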

How the data were processed

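Mammary biopsies of 6 cows were measured on 36 arrays. The authors background corrected, normalized and summarized the probe signals with RMA (version not given in the sources used here), and the deposited values are log2 levels of 24128 probe sets. The 112 control sets were not tested. Array medians lay between 6.04 and 6.15, and the number of arrays limits the precision. Of the 24016 probe sets tested, 7491 had a mean under 5.

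The 18 differences within cows were fitted with limma 3.58.1 in R 4.3.3, with 1 mean per day and a spread common to the days, and days within a side on the 36 arrays with cow as a block. P-values were adjusted by Benjamini and Hochberg over the probe sets tested. The sides of a cow deviated together in 18 of 18 pairs (correlations 0.242 to 0.665). The sample titles name no cow, and the replicate number in them was taken as the cow for the pairing. Cows are separate animals.

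Symbols came from the platform annotation, and all 176 genes matched a RefSeq gene. The members, classes and lists were chosen with earlier results of these data known. Named were up to 8 genes a comparison with the smallest p that went one way in 5 or more cows, genes known from mammary tissue (41 of 53 listed were measured) and the leading gene of each class with at least 5 genes; others named were chosen after their values were seen. Alternatives were scaling, centring, filters, the spread, probe sets, no replicate block and each cow left out, and, chosen after seeing the data, cow 1 left out of the marker lists and of the unnamed SLC1A1 probe set. The fit was tested on simulated data.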

Additional observations from a re-analysis of the deposited data

Results flagged for a closer look

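In 69 groups of 6 differences within cows (45 class means and 24 single genes), 6 held a cow far from the other 5, and chance gives about 1 in 20. On day 21 this was cow 1 for SLC16A1, with a difference of 2.82 against 0.40 for the next highest, for SLC35D2, with 1.80 against 0.40, and for the mean over metal and heme carriers, with 0.32 against 0.10. On day 40 cow 6 had a mean of 0.50 over carriers of neurotransmitters, amines and osmolytes, against 0.16 for the next highest, and cow 4 had 0.17 over nucleoside carriers, against 0.03. Cow 2 had a day 40 difference of -0.18 for SLC22A18, of the organic ion carrier family, where the next lowest was 0.27.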

How the results depend on the processing

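The number of called SLC genes depended on the pairing and on single cows. With no replicate block, so that the sides of a cow were not paired, the counts were 12 in place of 39 on day 21, 1 in place of 11 on day 23, 18 in place of 29 on day 40, 9 in place of 28 for the change from day 21 to day 23 and 2 in place of 10 to day 40. Within sides, without the block, they were 3 in place of 11 (day 23 minus day 21) and 4 in place of 15 (day 40) for 4×, and 16 in place of 34 and 7 in place of 15 for 2×. With a cow left out they ran from 15 to 41 on day 21, 5 to 19 on day 23, 16 to 39 on day 40, 14 to 35 and 7 to 12 for the changes, 5 to 12 and 9 to 15 in 4× glands, and 9 to 48 and 9 to 15 in 2× glands. Without the day 21 pair of cow 1 they were 14 on day 21, 17 on day 23, and 17 and 5 for the changes. With a separate spread on each day, day 21 had 23. With reference genes, day 23 had 6, day 40 had 14, and 4× glands had 7 and 6. Without probe sets under 5, day 23 had 6. The median over the probe sets of a gene turned SLC35A5 on day 40 to 0.10. Of 117 results for single genes, 17 passed the threshold under each alternative and 100 missed it under at least 1. No other call changed its direction. No SLC gene passed after adjustment under these settings, except 1 in 4× glands on day 40 minus day 21 without cow 1. Values under 5 lie near the background, which limits what can be read from the 36 genes there.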
